A study of Mus musculus with 68 samples.

Results

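Of the 56748 genes in the deposited count table, 10 were chosen by symbol because glucocorticoids, the steroid hormones of the adrenal cortex, are known to act on them: Fkbp5, Tsc22d3, Zbtb16, Sgk1, Klf9, Map3k6, Fam107a, Ddit4, Sesn1 and the receptor gene Nr3c1. Each symbol occupied 1 row. The choice was made with earlier results of these data known. The genes were followed in heart, lung, kidney and liver of wild-type C57BL/6J females aged 10 weeks. The vehicle mice received 50 to 60 µL of phosphate-buffered saline into the retro-orbital sinus under isoflurane, and the Egf mice 1 mg/kg of epidermal growth factor in the same way. Organs were collected 2 h or 6 h later, and untreated mice gave a further group, for which neither anaesthesia nor the hour of collection is given in the sources used here. Each organ had 3 untreated libraries, 3 vehicle libraries at each time and 4 Egf libraries at each time, 68 libraries in 20 groups. The vehicle and untreated groups differ in the injection and may also differ in the anaesthetic and the hour, which cannot be told apart. The labels number the libraries of a group without saying that each is a separate mouse, so the p values measure the spread between these libraries.

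Glucocorticoids enter cells and bind the glucocorticoid receptor, the product of Nr3c1, which is held by heat shock protein chaperones until the hormone arrives. The loaded receptor moves to the nucleus and binds DNA at a palindromic element, and transcription of many genes rises within hours. Stress and anaesthesia are known to raise corticosterone, the main glucocorticoid of the mouse, and its level also follows the time of day. Fkbp5 encodes a co-chaperone that lowers the receptor's affinity for hormone, and Nr3c1 is itself repressed by glucocorticoids in many cells, so both belong to the feedback of the pathway. Tsc22d3 encodes Gilz, a leucine zipper protein that restrains inflammatory transcription. Zbtb16 encodes the zinc finger repressor Plzf, and Klf9 a Krüppel-like factor. Sgk1 encodes a kinase that promotes sodium uptake, and Map3k6 a stress-activated kinase. Ddit4 encodes an inhibitor of mTORC1, and Sesn1 encodes a stress-responsive protein that also restrains mTORC1. Fam107a encodes an actin-binding protein that glucocorticoids and stress induce in brain.

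Promoter windows of the members are shown as background, since the receptor acts through DNA elements. Whether such elements had a part in any change reported here was not tested. RefSeq start sites on GRCm38.p6 gave 18 windows of 300 bases, from 250 before to 50 after the start, for 8 of the 10 members. Zbtb16 had no window in the source used. Nr3c1 was left out of the search, so its promoter was not read. The full glucocorticoid response element was searched as GNACANNNTGTNC, which reads the same on both strands, its single hexamer as AGAACA or the reverse TGTTCT, and the E-box, the element of clock factors, as CACGTG. A hexamer can lie within a full element. The full element occurred in 4 of the 18 windows, of Map3k6, Sgk1 and Fam107a, against 156 of 32851 windows of all genes (0.475%). The hexamer occurred in 6 of the 18 windows, of Tsc22d3, Sgk1 and Fam107a, and 19.0% of all windows hold one. The E-box occurred in 2 of the 18 windows, of Fkbp5 and Sgk1, and 7.15% of all windows hold one. Such a match is a run of letters and not a measured binding site. The Fkbp5 window held 0 full elements and 0 hexamers. Sites outside these windows were not searched. The 3 windows with a full element follow, at chr4:133240568-133240867 on the plus strand for Map3k6, chr14:8309728-8310027 on the minus strand for Fam107a, and chr10:21993640-21993939 on the plus strand for Sgk1. They are joined by the Fkbp5 window with its E-box at chr17:28486100-28486399 on the minus strand. Capitals mark the full elements, hexamers and E-boxes, and positions are counted from the 5′ end of the window.
Map3k6: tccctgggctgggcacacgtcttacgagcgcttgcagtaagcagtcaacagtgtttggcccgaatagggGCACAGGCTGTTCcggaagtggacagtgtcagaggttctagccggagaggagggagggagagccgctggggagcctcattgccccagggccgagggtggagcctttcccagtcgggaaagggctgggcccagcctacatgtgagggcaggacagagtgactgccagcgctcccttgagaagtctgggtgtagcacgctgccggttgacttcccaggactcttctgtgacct
Fam107a: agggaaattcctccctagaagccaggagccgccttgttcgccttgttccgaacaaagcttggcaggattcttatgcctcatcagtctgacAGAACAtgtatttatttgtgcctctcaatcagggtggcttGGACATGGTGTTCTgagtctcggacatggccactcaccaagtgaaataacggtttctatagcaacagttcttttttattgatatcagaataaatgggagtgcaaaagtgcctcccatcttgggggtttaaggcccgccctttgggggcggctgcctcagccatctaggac
Sgk1: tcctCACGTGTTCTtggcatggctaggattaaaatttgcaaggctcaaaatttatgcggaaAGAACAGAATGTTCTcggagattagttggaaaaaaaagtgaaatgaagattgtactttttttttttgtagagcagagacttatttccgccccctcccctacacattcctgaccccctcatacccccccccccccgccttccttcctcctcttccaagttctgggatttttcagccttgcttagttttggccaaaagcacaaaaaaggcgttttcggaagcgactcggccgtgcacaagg
Fkbp5: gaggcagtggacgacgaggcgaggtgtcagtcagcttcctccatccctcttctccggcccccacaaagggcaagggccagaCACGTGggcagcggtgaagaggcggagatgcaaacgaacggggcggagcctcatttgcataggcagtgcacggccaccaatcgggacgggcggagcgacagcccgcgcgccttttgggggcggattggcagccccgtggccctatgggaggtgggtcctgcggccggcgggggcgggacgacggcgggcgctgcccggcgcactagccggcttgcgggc
The full element starts at position 70 in the Map3k6 window, at 131 in the Fam107a window and at 63 in the Sgk1 window. In the Sgk1 window an E-box at position 5 overlaps a hexamer at position 9, and the Fkbp5 E-box lies at position 82. A second Fam107a start 2 bases away shares nearly the whole window and its element. The other 5 Sgk1 windows held no full element.

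Each library held between 13271813 and 24972005 counted reads. All 8 markers of the labelled organ were read in every library. All 3 untreated hearts carried RNA of another organ. Replicates 1 and 3 held 15293 and 13099 CPM (read counts scaled to a common library total) of summed hepatocyte markers. Replicate 2 held 1143 CPM of kidney tubule markers, and its hepatocyte sum of 1140.6 was near the median of all hearts, 1012. The vehicle hearts at 2 h had hepatocyte sums of 38.1 to 95.6, and 0 of 8 hepatocyte markers were at 0. Vehicle heart replicate 1 at 2 h held 3053 CPM of kidney tubule markers. The part of this RNA in the heart results was not tested, and no heart comparison with untreated mice can leave those libraries out. Among the livers, vehicle replicate 2 at 2 h stood apart with 0.0126% of its counts in 18S ribosomal RNA, against 1.64% and 3.47% in the other vehicle livers of that time. In bulk RNA of an organ, fewer cells of a type and less RNA per cell cannot be told apart. Levels below are CPM after TMM scaling within an organ, and changes are log2 fold changes with their standard errors. A gene is said to have risen or fallen where the adjusted p of the edgeR quasi-likelihood test, over all genes tested, was under 0.05.

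In untreated mice the members had different organ patterns. Levels in the next sentences are mean ± SD of 3 libraries on a scale shared by all 68 libraries, which differs from the scale within 1 organ. Map3k6 stood at 15.1 ± 3.08 CPM in lung, 5.55 ± 0.941 in heart, 2.84 ± 0.218 in kidney and 0.991 ± 0.38 in liver, and it differed in all 6 organ pairs. Fkbp5 ran the other way, with 57.1 ± 9.31 CPM in liver, 26.8 ± 3.8 in kidney, 17.8 ± 3.02 in heart and 14.1 ± 2.8 in lung. Its liver level exceeded the kidney level (adjusted p = 0.000442), whereas heart did not differ beyond the spread from kidney (adjusted p = 0.0543) or lung (adjusted p = 0.279). The untreated lung mean of Fkbp5 was the lowest of the 20 groups. These pairwise tests stand against a background in which most genes differ: 66.3% of 18736 genes between heart and lung, 61.7% between heart and kidney, 61.9% between heart and liver, 63.8% between lung and kidney, 71.0% between lung and liver and 56.4% between kidney and liver. The shared scale assumes that most genes do not differ, so the organ order of a gene rests on it.

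Fam107a was a kidney transcript here, at 179 ± 14.4 CPM, with 8.7 ± 1.82 in lung and 6.2 ± 5.59 in heart, which did not differ from each other beyond the spread (adjusted p = 0.296). The heart mean includes replicate 2, the highest untreated heart, which held 1143 CPM of kidney tubule markers. In liver it had 31 reads over all 17 libraries, 6 of which had 0, and it was not tested there. Sesn1 was highest in heart, at 126 ± 19.5 CPM against 27 ± 2.09 in lung (adjusted p = 5.04e-18), 21 ± 3.39 in liver and 18.1 ± 0.141 in kidney. Zbtb16 ran from 16.5 ± 3.71 CPM in lung through 7.92 ± 1.31 in heart and 5.46 ± 4.5 in liver to 1.4 ± 0.234 in kidney, where heart and liver did not differ (adjusted p = 0.354). Tsc22d3 was lowest in kidney, at 26.5 ± 7.0 CPM against 56.2 ± 13.4 in heart (adjusted p = 0.000258), 64.2 ± 12.3 in liver and 92.1 ± 48 in lung. Lung and liver did not differ in it beyond the spread (adjusted p = 0.0625).

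Sgk1 ran from 138 ± 41.4 CPM in kidney, where its product acts on sodium transport, through 91.9 ± 11.4 in lung and 65 ± 29.6 in heart to 49.98 ± 17.7 in liver, and no neighbours in that order differed (adjusted p from 0.0703 to 0.261). Ddit4 ran from 29.8 ± 11.7 CPM in heart through 20.4 ± 0.565 in lung and 15.4 ± 0.587 in kidney to 8.25 ± 1.86 in liver, and liver was below kidney (adjusted p = 0.00912). Nr3c1 was at 157 ± 20.1 CPM in liver and 149.6 ± 14.9 in lung, which did not differ (adjusted p = 0.589), and at 109.5 ± 11.9 in heart and 101 ± 6.7 in kidney. Klf9 was the most even member, between 130.3 ± 22 CPM in lung and 169 ± 25.5 in kidney, and differed in 0 of 6 organ pairs by edgeR, the only tool run for them. Per kb of gene length, untreated kidney had 46.2 ± 3.73 CPM per kb of Fam107a, 35 ± 5.3 of Klf9, 28.2 ± 8.45 of Sgk1 and 0.264 ± 0.0442 of Zbtb16. The receptor gene had 20.4 ± 2.61 CPM per kb in liver and Fkbp5 6.03 ± 0.983.

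**Figure D1:**
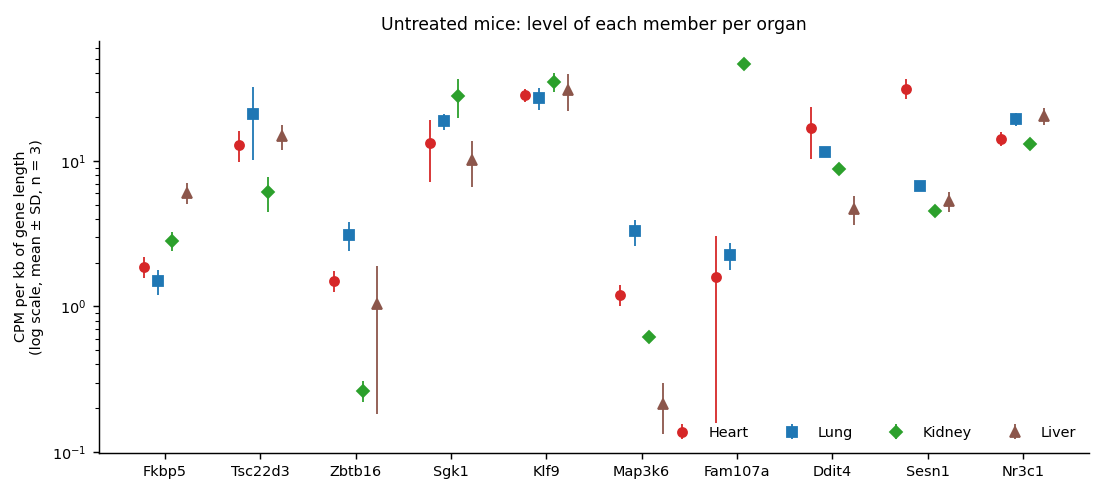
Level of each member in untreated mice, as CPM per kb of gene length on a log axis, with the mean and SD of 3 libraries for each organ (symbols and colours). Klf9 and Nr3c1 lie close together in all 4 organs, Map3k6 spreads from lung down to liver, and Fam107a is high in kidney only among the 3 organs drawn; liver Fam107a, near 0 reads, is left out.

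The first comparison set the saline injection at 2 h against no injection. In lung, 3 members rose, Fkbp5, Map3k6 and Fam107a. They made up 3 of the 11 genes that rose among 16778 tested (0.0656%). As the members were chosen with earlier results of these data known, the 2 shares are not an independent contrast. In heart Map3k6 rose, 1 of 2 genes called among 15618 (0.0128%). In kidney 0 of 10 members passed the edgeR test, with 4 at an unadjusted p under 0.05 beside 13.6% of all genes, where 4 of 15654 genes passed (0.0256%). By DESeq2, 3 kidney members passed (Fkbp5, Nr3c1, Zbtb16), and by limma voom 4, the same 3 and Map3k6. In liver 0 of 9 members passed, with 3 at an unadjusted p under 0.05 beside 16.6% of all genes, 1 by DESeq2 (Nr3c1) and 2 by limma voom (Nr3c1 and Zbtb16), where 21 of 13592 genes passed (0.155%). The members' median log2 fold change of 0.94 in heart stood beside 0.01 for all genes, 0.56 in lung beside 0.00, 0.25 in kidney beside -0.03, and 0.37 in liver beside -0.04. The change was above 0 for 9 of 10 members in heart and in lung, 6 of 10 in kidney and 8 of 9 in liver.

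The groups can also be read by overlap, without a test. In heart, 5 members lay higher in all vehicle libraries than in all untreated ones, against 8.61% of all genes, and they were Fkbp5, Tsc22d3, Zbtb16, Map3k6 and Ddit4. In lung there were 4, Fkbp5, Zbtb16, Map3k6 and Fam107a, against 9.36% of genes. In kidney there were 2, Fkbp5 and Zbtb16, against 7.98%, and in liver 2, Zbtb16 and Map3k6, against 12.3%. Zbtb16 thus lay higher without overlap in all 4 organs. Nr3c1 lay lower without overlap in heart (background 8.64%), kidney (10.9%) and liver (11.6%), and 0 members did so in lung (9.69%). Sesn1 also did so in kidney, but was nearly tied. Its highest vehicle value was 20.757 CPM and its lowest untreated value 20.769.

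**Figure D2:**
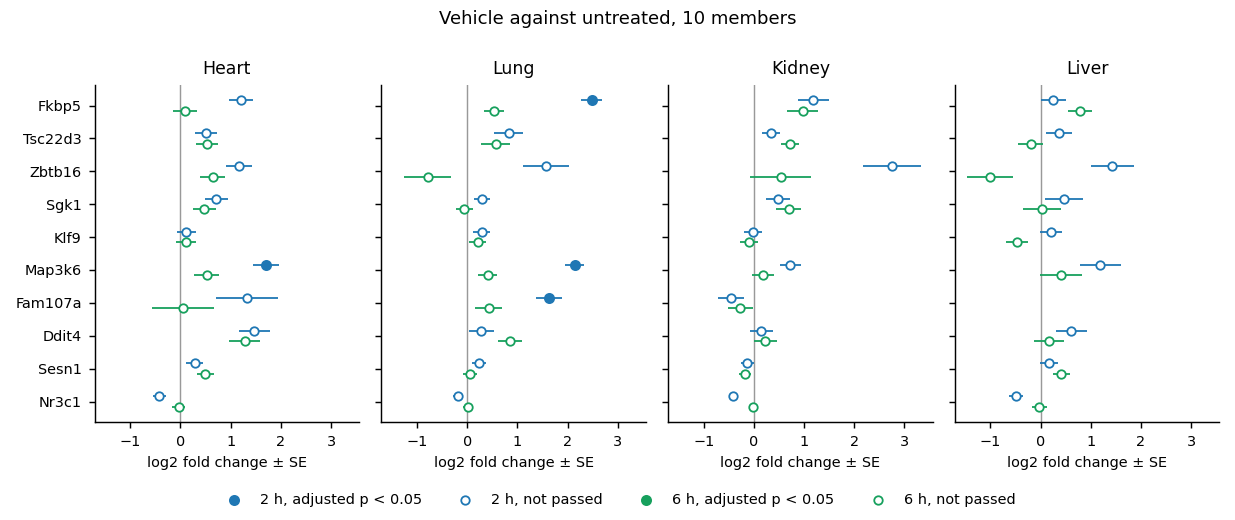
Log2 fold change of each member, vehicle over untreated, at 2 h (blue) and 6 h (green) in 4 organs; bars are the standard error and filled points have an adjusted p under 0.05. Filled points are Map3k6 in heart and Fkbp5, Map3k6 and Fam107a in lung, all at 2 h, and 0 at 6 h.

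Fkbp5, the co-chaperone of the receptor (ENSMUSG00000024222, mm39 chromosome 17 from 28618068 to 28736501, minus strand), made the largest change among the members in lung. The untreated lungs had 17, 25 and 23.7 CPM, the vehicle lungs 123, 139.7 and 104 at 2 h and 36, 32.3 and 26.6 at 6 h. Every vehicle lung at 2 h lay far above every untreated lung and every 6 h lung. The rise was 2.48 ± 0.21 (adjusted p = 2.99e-05), a ratio of group means of 5.6. From 2 h to 6 h Fkbp5 fell by 1.95 ± 0.20 (adjusted p = 0.000348), and at 6 h it stood at 0.53 ± 0.20 against untreated lungs (adjusted p = 0.417), still without overlap. Both lung calls of Fkbp5 held under 7 of 7 other analyses and in 6 of 6 fits that left out 1 library. A lncRNA on the opposite strand, Gm22146, had 1348 reads over all libraries against 67091 of Fkbp5, and the libraries do not keep strand.

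In heart Fkbp5 had 14.1, 14.6 and 19.4 CPM untreated, 41.1, 32.1 and 37.8 in vehicle libraries at 2 h and 23.1, 12.4 and 15.5 at 6 h. The 2 h libraries lay above both other groups, with a difference of 1.21 ± 0.24 from untreated that did not pass (adjusted p = 0.187). Kidney values were 28.1, 28.8 and 35.5 CPM untreated, 85.8, 45.3 and 78.4 at 2 h and 71.7, 55.5 and 53.6 at 6 h. All 6 vehicle kidneys exceeded all untreated ones, but the differences of 1.18 ± 0.31 at 2 h and 0.97 ± 0.31 at 6 h did not pass (adjusted p = 0.209 and 0.368). In liver the untreated libraries had 38, 29.8 and 40.6 CPM, the vehicle ones 49.4, 36.2 and 44 at 2 h and 73.7, 67.1 and 46.1 at 6 h. Liver values overlapped at 2 h (0.26 ± 0.24) and not at 6 h (0.79 ± 0.24, adjusted p = 0.174).

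The size of the 2 h vehicle effect on Fkbp5 differed among the 4 organs, with adjusted p = 0.0138 in a fit over all 68 libraries, in which 44 of 18736 genes differed (0.235%). That fit took libraries of different organs as independent. Lung had the highest change and liver the lowest, with heart and kidney between them at like values. The call of a difference was lost when replicate 2 or 3 of the vehicle groups at 2 h, or replicate 1 or 3 of the untreated groups, was left out of every organ at once. Of the other members 0 passed by edgeR, the tool used for this test, although Map3k6, Fam107a and Ddit4 had an unadjusted p under 0.05, as did 8.33% of all genes (Fam107a adjusted p = 0.106). For the vehicle effect at 6 h, 0 members passed by edgeR with 3 at an unadjusted p under 0.05 beside 7.8% of all genes, and 0.315% of genes were called.

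Nr3c1, the receptor gene (ENSMUSG00000024431, mm39 chromosome 18 from 39543598 to 39652474, minus strand), was lower after the vehicle in 3 organs, without passing in edgeR. Hearts had 103, 85 and 108 CPM untreated, 74.1, 70.5 and 76.4 in vehicle libraries at 2 h and 105, 75.4 and 108 at 6 h. Kidneys had 116, 111 and 124 untreated, 89.4, 86.6 and 86.2 at 2 h and 116, 107 and 123 at 6 h. Livers had 103, 85.6 and 109 untreated, 69.5, 68.6 and 73.8 at 2 h and 104, 82.9 and 105 at 6 h. In all 3 organs every vehicle library at 2 h lay below every untreated one, and the 6 h values overlapped the untreated ones. The 2 h differences were -0.42 ± 0.13 in heart, -0.42 ± 0.08 in kidney and -0.49 ± 0.14 in liver, and none passed (adjusted p = 0.233, 0.122 and 0.194). In DESeq2 the gene passed in these 3 organs. Lung values of 257, 212 and 226 CPM untreated and 222, 194 and 198 at 2 h overlapped (-0.18 ± 0.10).

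Map3k6, the stress-activated kinase gene (ENSMUSG00000028862, mm39 chromosome 4 from 132968129 to 132980240, plus strand), followed Fkbp5 in lung. The untreated lungs had 18, 26.4 and 25.8 CPM, the vehicle lungs 116, 105 and 88 at 2 h and 34.6, 30.6 and 27.9 at 6 h. The 2 h group stood clear of both others. It rose by 2.14 ± 0.20 at 2 h (adjusted p = 6.24e-05) and fell by 1.73 ± 0.19 from 2 h to 6 h (adjusted p = 0.00065). Both calls held under 7 of 7 other analyses and in 6 of 6 fits with 1 library left out.

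In heart Map3k6 had 4.49, 5.87 and 4.57 CPM untreated, 18.2, 14 and 16.6 in vehicle libraries at 2 h and 8.98, 6.87 and 5.61 at 6 h. The 2 h group lay above both others, a rise of 1.71 ± 0.25 (adjusted p = 0.0476). That call was lost with RLE size factors, limma voom, a fit to the compared groups alone or a replicate block. It was also lost without untreated replicate 1 or 3 or any 1 vehicle library, with adjusted p of up to 0.391. Kidneys had 3.18, 3.57 and 3.05 CPM untreated and 6.43, 3.5 and 6.28 at 2 h, where vehicle replicate 2 lay within the untreated range (0.73 ± 0.21, adjusted p = 0.249). Livers had 0.787, 0.759 and 0.344 untreated and 1.22, 1.81 and 1.26 at 2 h, without overlap at a level near 1 CPM (1.19 ± 0.41, adjusted p = 0.233).

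Zbtb16, the gene of the repressor Plzf (ENSMUSG00000066687, mm39 chromosome 9 from 48565597 to 48747522, minus strand), was higher without overlap at 2 h in 4 of 4 organs and passed in 0 of them by edgeR, with an unadjusted p under 0.05 in each. DESeq2 passed it in heart, lung and kidney, and limma voom in lung, kidney and liver. In kidney it had 1.89, 1.61 and 1.32 CPM untreated, 16.1, 5.6 and 10.9 in vehicle libraries at 2 h and 2.27, 1.5 and 3.21 at 6 h. The lowest vehicle kidney at 2 h still lay well above the highest untreated one, and the difference was 2.75 ± 0.58 (adjusted p = 0.136). In lung it had 20.1, 25.1 and 31.3 CPM untreated, 101, 77.6 and 48.5 at 2 h and 14.5, 16.1 and 13.8 at 6 h. The 6 h lungs lay below the untreated ones without overlap, and the changes were 1.57 ± 0.46 at 2 h, -0.79 ± 0.46 at 6 h and -2.36 ± 0.48 from 2 h to 6 h (adjusted p = 0.258, 0.54 and 0.0547).

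Livers had 1.78, 1.87 and 6.63 CPM of Zbtb16 untreated, 9.4, 8.73 and 9.77 at 2 h and 1.81, 1.79 and 1.52 at 6 h. Untreated replicate 3 stood apart from the other untreated livers. From 2 h to 6 h Zbtb16 fell in liver by 2.44 ± 0.46 (adjusted p = 0.00935), a call lost without vehicle replicate 1 of 6 h (adjusted p = 0.0515). Without the vehicle liver that stood apart in 18S reads the change was -2.48. In heart the values were 7.94, 7.51 and 5.88 CPM untreated, 14.9, 13.7 and 19.5 at 2 h and 13.3, 11.3 and 8.72 at 6 h, so both vehicle groups lay above the untreated hearts (1.17 ± 0.26 and 0.64 ± 0.26, adjusted p = 0.187 and 0.481).

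Fam107a, the actin-binding protein gene (ENSMUSG00000021750, mm39 chromosome 14 from 14151750 to 14173499, plus strand in the deposited table), rose in lung. The untreated lungs had 10.2, 15.3 and 14.8 CPM, the vehicle lungs 39.4, 53.2 and 32.3 at 2 h and 21.3, 17.1 and 15.8 at 6 h. Its rise of 1.63 ± 0.27 at 2 h (adjusted p = 0.033) was lost without the filter on low counts (adjusted p = 0.0575). It was also lost without untreated replicate 1 or 3 or any 1 vehicle library, with adjusted p of up to 0.266. Kidney, where the gene is most abundant, had 222, 211 and 186 CPM untreated and 206, 78.7 and 166 at 2 h, a difference of -0.46 ± 0.25 with overlap. Hearts had 1.76, 11.1 and 3.76 untreated and 21.7, 9.59 and 10.3 at 2 h, with overlap and a wide error (1.32 ± 0.62, adjusted p = 0.311). The highest heart of each group, untreated replicate 2 and vehicle replicate 1, held 1143 and 3053 CPM of kidney tubule markers. The part of kidney RNA in these heart values was not tested.

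**Figure D3:**
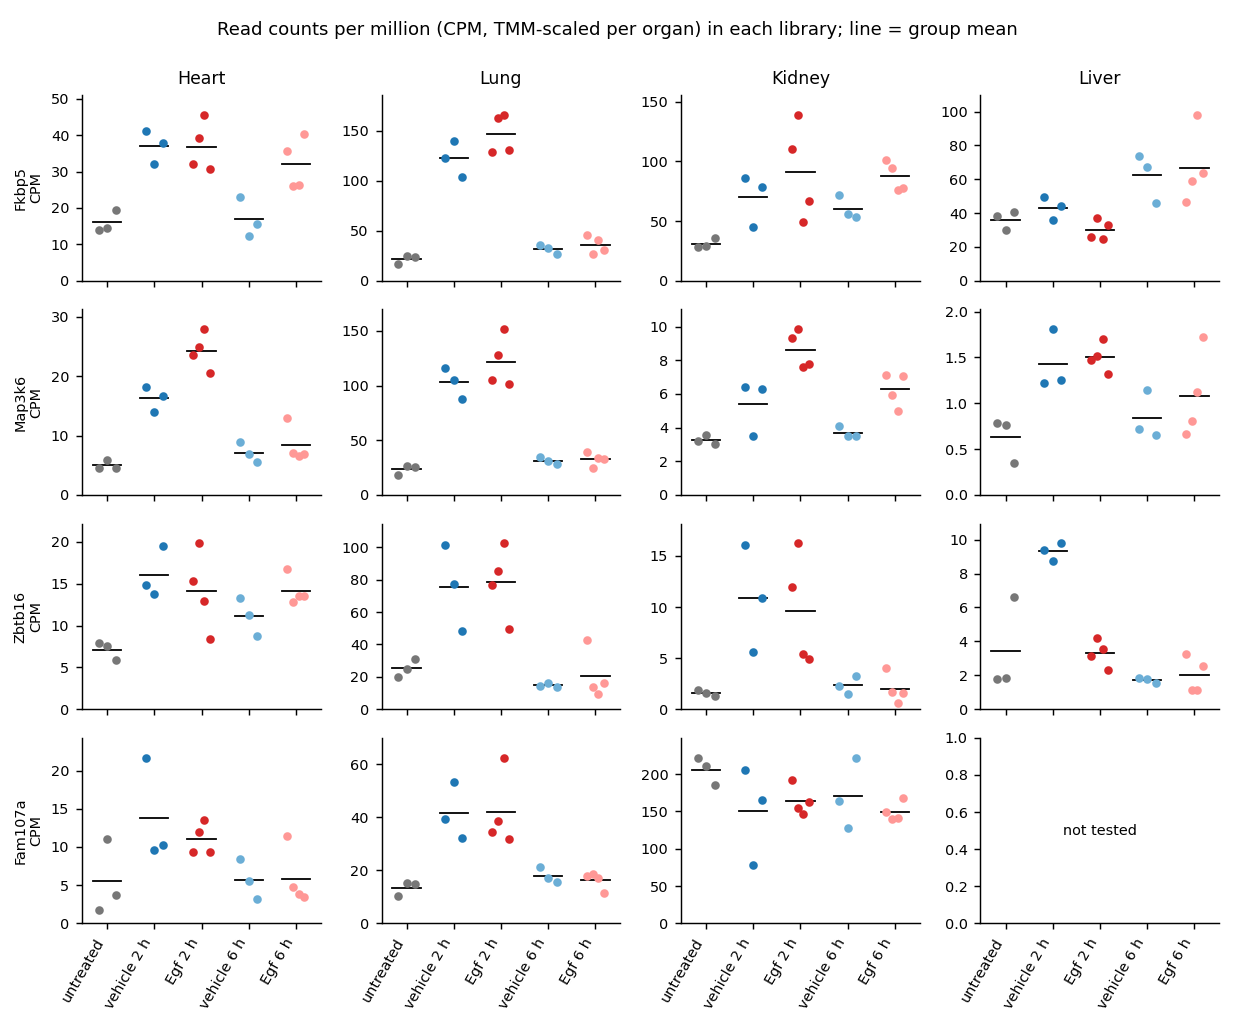
CPM of Fkbp5, Map3k6, Zbtb16 and Fam107a (rows) in every library of 4 organs (columns), by group; each point is 1 library and each line a group mean, and the axes start at 0 and differ among panels. In lung the vehicle and Egf libraries at 2 h stand above the untreated and 6 h libraries for all 4 genes, and in liver the vehicle libraries of Zbtb16 at 2 h stand above all other liver libraries.

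Tsc22d3, which encodes Gilz (ENSMUSG00000031431, mm39 chromosome X from 139440277 to 139501408, minus strand), passed in 0 of 4 organs in edgeR at 2 h or 6 h. In lung it had 107, 228 and 92.8 CPM untreated, 206, 242 and 310.5 in vehicle libraries at 2 h and 240.2, 201 and 193 at 6 h, where untreated replicate 2 lay among the vehicle values (0.83 ± 0.28 at 2 h, adjusted p = 0.315). Heart had 54, 59.4 and 37.6 CPM untreated, 61, 68.5 and 85 at 2 h and 91.3, 64.7 and 61.5 at 6 h, both vehicle groups above the untreated one (0.51 ± 0.22 and 0.53 ± 0.22). Kidney differed mainly at 6 h, with 30.4, 38.9 and 22.4 untreated, 34.5, 34.2 and 47.7 at 2 h and 47.8, 52.6 and 50.3 at 6 h, and the 6 h libraries overlapped neither group (0.72 ± 0.18 against untreated, adjusted p = 0.192). In liver the difference was 0.37 ± 0.25 at 2 h and -0.20 ± 0.25 at 6 h.

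Klf9 (ENSMUSG00000033863, mm39 chromosome 19 from 23118590 to 23145498, plus strand) showed small differences after the vehicle. Its 2 h differences ran from -0.02 ± 0.18 in kidney to 0.29 ± 0.17 in lung, with overlap in every organ. In liver it had 77.4, 80.9 and 123 CPM untreated, 111, 87.7 and 126 at 2 h and 72.1, 65.1 and 65.8 at 6 h, so that the 6 h livers lay below both other groups (-0.47 ± 0.21 against untreated, adjusted p = 0.364).

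Sgk1, the kinase gene (ENSMUSG00000019970, mm39 chromosome 10 from 21758083 to 21875802, plus strand), was positive in all 4 organs at 2 h and called in 0 by edgeR. Kidney, its site of highest level, had 107, 200.3 and 170.3 CPM untreated, 144, 286 and 234 in vehicle libraries at 2 h and 249, 267 and 255 at 6 h. The 6 h kidneys lay above all untreated ones (0.69 ± 0.24, adjusted p = 0.433), and the 2 h kidneys overlapped them (0.48 ± 0.24). Heart had 41.5, 87.7 and 45.3 CPM untreated and 109, 84 and 93.6 at 2 h, where untreated replicate 2 lay among the vehicle values (0.71 ± 0.23, adjusted p = 0.233). In liver the vehicle values at 2 h of 16.3, 77.1 and 38.5 CPM spread over more than the untreated ones, 35.9, 40.6 and 18.7. In lung the difference was 0.29 ± 0.16.

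Ddit4, the mTORC1 inhibitor gene (ENSMUSG00000020108, mm39 chromosome 10 from 59785491 to 59787656, minus strand), stood out in heart. It had 20.4, 38.4 and 21.3 CPM untreated, 43.5, 88.5 and 90.2 in vehicle libraries at 2 h and 58.3, 79.7 and 56.3 at 6 h, and all 6 vehicle hearts exceeded all untreated ones. The differences were 1.47 ± 0.31 and 1.28 ± 0.30, and neither passed (adjusted p = 0.187 and 0.2), while both passed in DESeq2. Lung differed mainly at 6 h, with 31, 32.6 and 31.1 CPM untreated, 25.6, 40.7 and 49 at 2 h and 47.5, 67.2 and 55.9 at 6 h, and the 6 h lungs lay above the untreated ones (0.85 ± 0.24, adjusted p = 0.284). Kidney (0.15 ± 0.23) and liver (0.61 ± 0.30) overlapped at 2 h.

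Sesn1 (ENSMUSG00000038332, mm39 chromosome 10 from 41685931 to 41784420, plus strand) had close values in kidney, with 21, 20.8 and 20.8 CPM untreated, 20.8, 18.3 and 18.1 at 2 h and 17.2, 19.9 and 18.3 at 6 h. Those kidneys differed by -0.13 ± 0.13 at 2 h and -0.18 ± 0.13 at 6 h. In heart, where it is most abundant, the values were 116, 92.5 and 131 CPM untreated, 102, 168 and 141 at 2 h and 133, 180.5 and 165 at 6 h. The 6 h hearts lay just above the untreated ones (0.50 ± 0.18, adjusted p = 0.427).

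**Figure D4:**
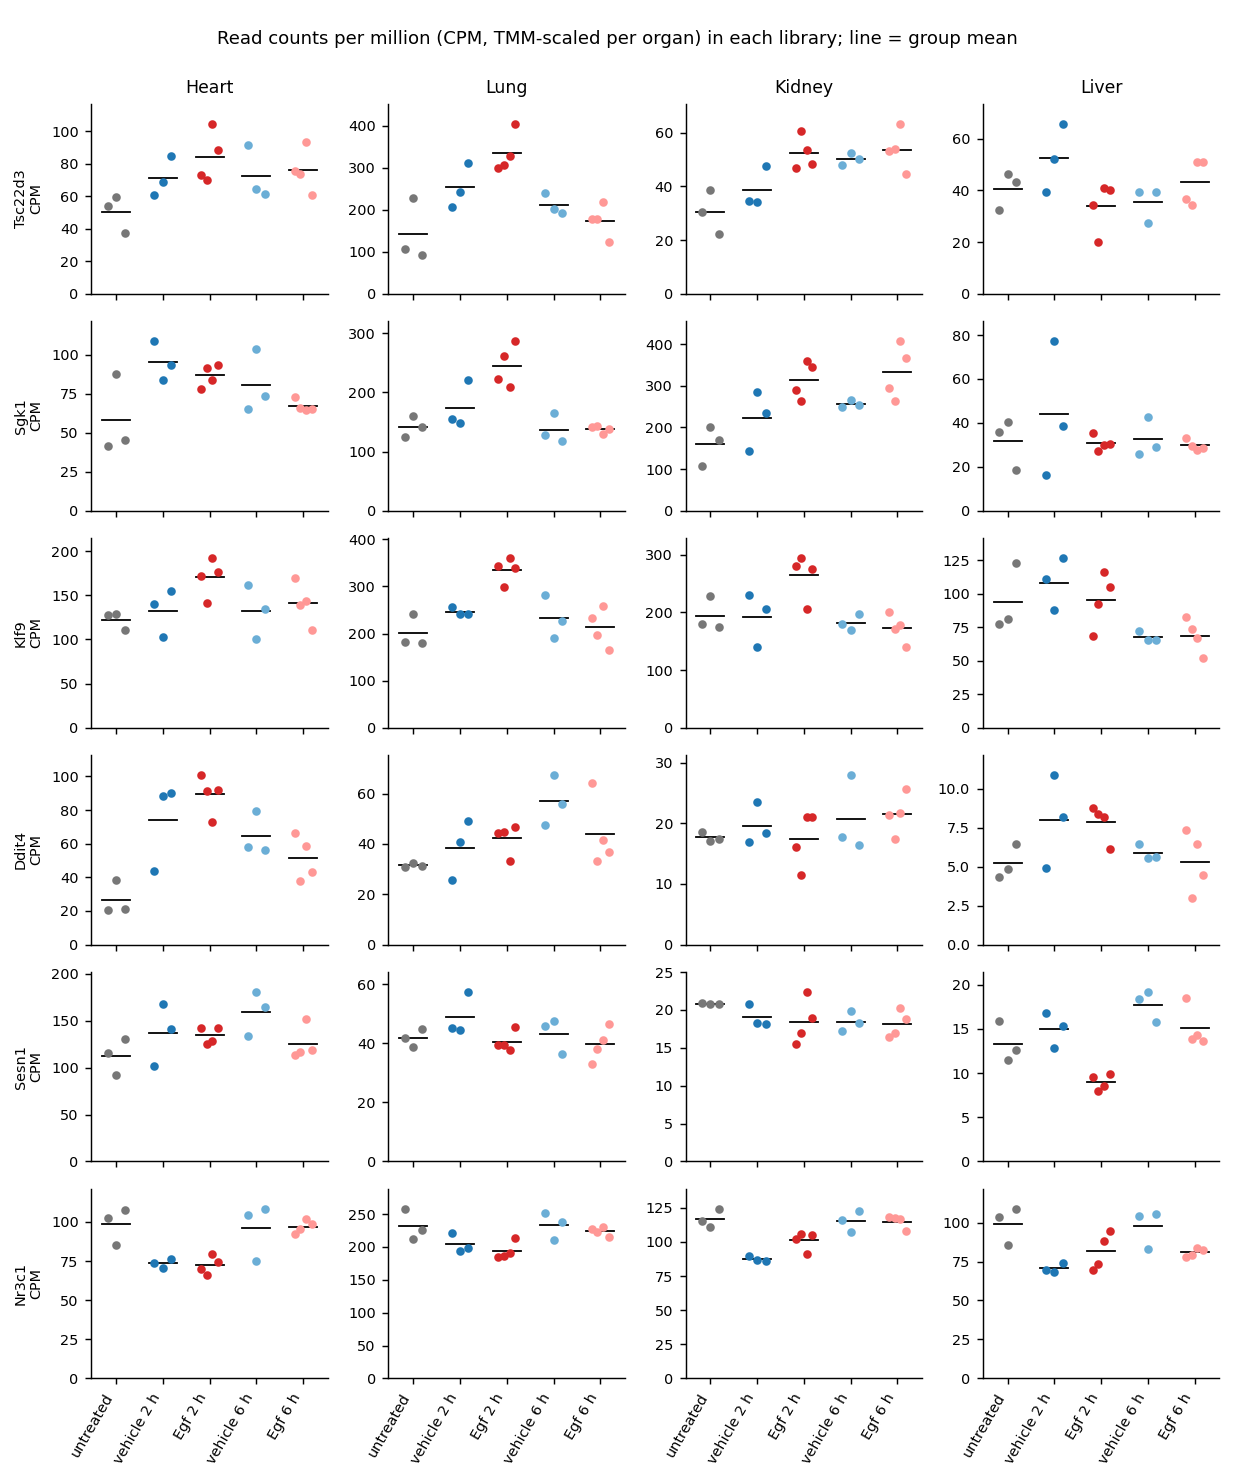
CPM of Tsc22d3, Sgk1, Klf9, Ddit4, Sesn1 and Nr3c1 (rows) in every library of 4 organs (columns), by group; each point is 1 library, each line a group mean, and the axes start at 0 and differ among panels. Nr3c1 is lower in the vehicle libraries at 2 h than in untreated ones in heart, kidney and liver, and Ddit4 is higher in all vehicle hearts than in the untreated ones.

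By 6 h after the vehicle, 0 members differed from untreated mice by edgeR in any organ. In heart 4 members had an unadjusted p under 0.05 beside 9.32% of all genes, 1 passed by DESeq2 (Ddit4) and 3 by limma voom, with 0.0192% of genes called. In lung these numbers were 3 (beside 9.8%), 0 and 0, with 0.101% of genes called. In kidney they were 3 (beside 7.11%), 1 (Tsc22d3) and 2, with 0.211%, and in liver 4 (beside 12.8%), 0 and 1 (Fkbp5), with 0.67%. Members higher without overlap at 6 h were 4 in heart against 7.45% of genes, 4 in lung against 8.51%, 3 in kidney against 6.02% and 1 in liver against 9.23%. Fkbp5 was among them in lung, kidney and liver. From 2 h to 6 h after the vehicle, the members that fell were Fkbp5 and Map3k6 in lung (0.441% of genes called) and Zbtb16 in liver (1.55%). In heart 0 passed by edgeR, with 3 at an unadjusted p under 0.05 (5.34% of all genes) and 2 by DESeq2 and by limma voom (Fkbp5 and Map3k6), against 0.0384% of genes. In kidney 0 passed by edgeR, with 3 at an unadjusted p under 0.05 (7.34% of all genes), 2 by DESeq2 and 3 by limma voom, against 0.179%. The 2 vehicle comparisons with untreated mice share the untreated libraries, and the comparison of times shares the vehicle libraries with both.

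Another 25 genes that glucocorticoids are known to induce were read as a list. By edgeR, 0 of 25 passed at 2 h in heart, lung and kidney. There 6, 8 and 6 had an unadjusted p under 0.05, beside 16.2%, 12.2% and 13.6% of all genes. In liver 3 of the 23 tested rose, beside 0.155% of genes called. The liver genes were Lpin1, which encodes a phosphatidate phosphatase, from 44.2 ± 10.7 to 257 ± 92.7 CPM (2.54 ± 0.30, adjusted p = 0.00131), the cell cycle inhibitor Cdkn1a (2.67 ± 0.41) and the metallothionein Mt2 (3.22 ± 0.52). Lpin1 stayed called in 6 of 6 fits with 1 library left out, Cdkn1a in 3 (lost without vehicle replicate 3, untreated replicate 1 or untreated replicate 3) and Mt2 in 2 (lost also without vehicle replicate 2), with adjusted p of up to 0.111. Without the vehicle liver that stood apart in 18S reads the changes were 2.80, 2.71 and 2.69. At 2 h the list's median change was 0.04 (heart), 0.21 (lung), 0.09 (kidney) and 0.26 (liver), and the medians of all genes are given above. At 6 h the metallothionein gene Mt1 rose in heart (0.87 ± 0.13) and the glutamine synthetase gene Glul in kidney (0.68 ± 0.13). Of all genes, 0.0192% and 0.211% were called there. Mt1 kept its call in 1 of 6 fits with 1 library left out, the one without untreated replicate 1, and Glul in 0 of 6 (adjusted p of up to 0.279 and 0.214). From 2 h to 6 h Cdkn1a fell in lung from 212 ± 48.1 to 45 ± 2.1 CPM (-2.24 ± 0.31), in kidney (-1.66 ± 0.20) and in liver (-4.62 ± 0.47), and each of these calls held in 6 of 6 such fits.

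Of 12 genes for receptor chaperones, cofactors and steroid supply, such as Hsp90ab1, Fkbp4 and Hsd11b1, 0 passed by edgeR in any organ and comparison. Up to 3 had an unadjusted p under 0.05, where 4.24% to 16.6% of all genes did. Their median change 2 h after the vehicle was -0.26 (heart), 0.01 (lung), -0.14 (kidney) and -0.35 (liver). The clock list had 18 genes, since corticosterone follows the time of day. At 2 h, 0 of 18 passed by edgeR in any organ, with 3, 1, 1 and 4 at an unadjusted p under 0.05 in heart, lung, kidney and liver. The shares of all genes at such a p were 16.2%, 12.2%, 13.6% and 16.6%. At 6 h, 3 rose and 1 fell in lung, 3 rose and 1 fell in kidney, and 2 rose and 3 fell in liver. The shares of all genes called there were 0.101%, 0.211% and 0.67%. In heart 0 passed, where 12 had an unadjusted p under 0.05, beside 9.32% of all genes. The core activator Arntl fell in lung (-2.55 ± 0.37), kidney (-2.82 ± 0.50) and liver (-3.09 ± 0.53), and the repressor gene Cry1 rose in lung (1.27 ± 0.16) and kidney (1.82 ± 0.29). With 1 library left out, Arntl kept its call in 2 of 6 fits in lung and in kidney, lost without vehicle replicate 1 or 2 or untreated replicate 2 or 3 (adjusted p of up to 0.143 and 0.224), and in 4 of 6 in liver, lost without vehicle replicate 1 or 2 (up to 0.062). Cry1 held in 6 of 6 in lung and 4 of 6 in kidney, lost without vehicle replicate 1 or untreated replicate 2 (up to 0.116). The part of the hour in the members' 6 h values was not tested. In the lungs, summed B cell markers were 142 to 191 CPM of the library total untreated and 78.0 to 111 in vehicle libraries at 2 h, with 0 of 7 at 0, and T cell markers 48.3 to 57.5 and 36.7 to 41.9, with 0 of 8 at 0. B cell markers were also lower without overlap in the vehicle hearts at 2 h (1.09 to 1.85 against 3.37 to 13.0), kidneys (3.52 to 4.08 against 4.61 to 6.12) and livers (1.23 to 2.99 against 3.13 to 5.31), with up to 2 of 7 at 0. The part of these cells in the vehicle results was not tested.

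The second comparison set Egf against vehicle at the same time. Vehicle libraries at 2 h serve here as the controls and in the comparison with untreated mice as the treated group, so the values are linked. In liver at 2 h Zbtb16 and Sesn1 fell, 2 of 9 members tested, where 3.92% of genes were called. In heart, lung and kidney 0 members passed by edgeR, with 1, 2 and 5 at an unadjusted p under 0.05 (7.64%, 8.48% and 7.82% of all genes), 0 in all 3 by DESeq2, and 0, 2 and 3 by limma voom. The shares of genes called there were 0.211%, 0.84% and 0.256%. The median change of the members at 2 h was -0.52 in liver, -0.01 in heart, 0.19 in lung and 0.30 in kidney, and that of all genes was -0.02, -0.02, 0.00 and -0.01. In liver 2 of 9 members were above 0.

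Livers had 3.12, 4.2, 3.53 and 2.32 CPM of Zbtb16 2 h after Egf, against 9.4, 8.73 and 9.77 after vehicle and 1.78, 1.87 and 6.63 untreated. All 4 Egf livers lay below all vehicle livers and within the untreated range. The fall of 1.49 ± 0.40 (adjusted p = 0.0395) was lost in 7 of 7 fits that left out 1 of the 7 libraries (adjusted p from 0.0552 to 0.14), without the low count filter, and with a replicate block. Sesn1 had 9.54, 8.01, 8.5 and 9.93 CPM after Egf, 16.8, 12.8 and 15.3 after vehicle and 15.9, 11.4 and 12.7 untreated. Every Egf liver lay below every vehicle and every untreated liver. The fall of 0.73 ± 0.16 (adjusted p = 0.0114) was lost without vehicle replicate 1 or 3 (adjusted p of up to 0.0815) and held in the other 5 such fits. Without the vehicle liver that stood apart in 18S reads it was -0.81. Adrenal markers summed to 0.658 to 181 CPM of the library total in the Egf livers at 2 h (up to 8 of 9 at 0) and to 1.06 to 1.36 in the vehicle livers (up to 7 at 0), and their part in these falls was not tested. Summed neutrophil markers were higher without overlap 2 h after Egf in all 4 organs, at 3.72 to 9.69 CPM against 2.33 to 3.31 in liver, 2.29 to 3.26 against 1.25 to 1.54 in kidney, 5.18 to 12.0 against 2.19 to 3.50 in heart and 143 to 297 against 84.3 to 125 in lung. Up to 4 of 8 were at 0 outside lung and 0 of 8 in lung, and their part in the Egf results was not tested.

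Other liver members at 2 h did not pass. Fkbp5 had 26, 36.9, 24.4 and 33 CPM after Egf against 49.4, 36.2 and 44 after vehicle, with overlap (-0.52 ± 0.23, adjusted p = 0.269). Tsc22d3 had 34.4, 19.95, 40.8 and 40.1 against 39.4, 52.2 and 65.5, also with overlap (-0.63 ± 0.24, adjusted p = 0.173). Map3k6 had a mean of 1.5 ± 0.157 CPM (SD, n = 4) after Egf and 1.43 ± 0.329 (n = 3) after vehicle. Of the 23 genes tested in the list of other glucocorticoid-induced genes, Klf15, a Krüppel-like factor of amino acid metabolism, fell from 119.6 ± 24 to 35.5 ± 2.76 CPM (-1.75 ± 0.16, adjusted p = 1.73e-06). Lpin1 (-2.27 ± 0.27) and the tyrosine aminotransferase gene Tat (-1.79 ± 0.22) fell as well, and Cebpd, a transcription factor gene of the acute phase, rose (1.26 ± 0.30). The first 3 held in 7 of 7 fits with 1 library left out, and Cebpd was lost without Egf replicate 4 or vehicle replicate 1 or 2 (adjusted p of up to 0.12). The list's median was 0.19, beside -0.02 for all genes.

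In lung the members that had risen after the vehicle were as high after Egf, with overlapping values. Lung Fkbp5 was 129, 163, 166 and 131 CPM 2 h after Egf, overlapping the vehicle values (0.27 ± 0.18, adjusted p = 0.795), and every one of these lungs exceeded every untreated lung. Lung Map3k6 was 105, 128, 152 and 102 CPM (0.24 ± 0.18), Zbtb16 77, 85.1, 102 and 49.6 (0.05 ± 0.42) and Fam107a 34.6, 38.7, 62.5 and 31.7 (0.01 ± 0.24), all overlapping the vehicle lungs. Klf9 was higher in all Egf lungs, 343, 299, 359.8 and 339 CPM against 257, 241 and 241 (0.45 ± 0.16, adjusted p = 0.313), and Sgk1 had 223, 261, 209.5 and 286 against 154, 148 and 221 (0.49 ± 0.15, adjusted p = 0.218). Those 2 genes passed in limma voom and not in edgeR or DESeq2.

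Map3k6 lay above the vehicle group after Egf in heart and kidney, without passing in edgeR. In kidney it passed in limma voom at 2 h, with Klf9 and Nr3c1, and at 6 h. Hearts had 23.6, 24.9, 27.9 and 20.5 CPM 2 h after Egf against 18.2, 14 and 16.6, without overlap (0.58 ± 0.23, adjusted p = 0.635). Kidneys had 9.33, 9.84, 7.58 and 7.78 against 6.43, 3.5 and 6.28, without overlap (0.67 ± 0.20, adjusted p = 0.229). At 6 h they had 7.11, 5.91, 4.99 and 7.05 against 4.1, 3.51 and 3.48, again without overlap (0.76 ± 0.20, adjusted p = 0.414). The shares of all genes higher without overlap were 4.21% in heart and 3.29% in kidney at 2 h, and 5.33% in kidney at 6 h. Kidney Fkbp5 2 h after Egf was 111, 139, 49 and 66.3 CPM, a wide spread around the vehicle values (0.39 ± 0.29). Kidney Nr3c1 2 h after Egf was 91.4 to 106 CPM, above the 86.2 to 89.4 after vehicle. In heart, lung and liver the Nr3c1 values of these groups overlapped. Adrenal markers summed to 2.04 to 62.4 CPM in the Egf kidneys at 2 h and to 1.42 to 2.27 in the vehicle kidneys, with up to 8 and 7 of 9 at 0, and their part was not tested.

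At 6 h Egf changed 0 members by edgeR in each organ, with 1, 0, 1 and 0 at an unadjusted p under 0.05 in heart, lung, kidney and liver (10.5%, 5.41%, 6.3% and 8.53% of all genes), 1, 0, 0 and 0 by DESeq2, and 2, 0, 1 and 0 by limma voom. Of all genes, 0.0128% were called in heart, 0.0% in lung (907 at an unadjusted p under 0.05), 0.0% in kidney (986 so) and 0.0883% in liver. Members higher without overlap were 1 in heart (4.40% of all genes), 0 in lung (1.97%), 2 in kidney (5.33%) and 0 in liver (4.52%). In the same order of organs, 0 lay lower without overlap, against 4.40%, 2.91%, 4.44% and 3.88% of all genes. Lung Egf replicates 3 and 4 at 6 h carried RNA of another organ. They held 26949 CPM of hepatocyte markers and 3301 CPM of skeletal muscle markers, in that order. The lung counts given here include both libraries. Fkbp5 was the heart member that passed by DESeq2, with 35.6, 26, 26.3 and 40.3 CPM after Egf against 23.1, 12.4 and 15.5 after vehicle, without overlap (0.92 ± 0.22, edgeR adjusted p = 0.466). Egf replicates 1 and 3 and vehicle replicate 2 carried RNA of another organ, and without them the change was 0.78. Kidney Fkbp5 at 6 h was 101, 94.4, 76 and 78.1 CPM against 71.7, 55.5 and 53.6 (0.54 ± 0.29, adjusted p = 0.803). Liver Fkbp5 at 6 h was 46.4, 59.1, 98 and 63.8 against 73.7, 67.1 and 46.1, with replicate 3 of Egf the highest (0.10 ± 0.22).

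The Egf effects at the 2 times differed for 0 members by edgeR, DESeq2 or limma voom in any organ, with 1, 2, 1 and 4 at an unadjusted p under 0.05 by edgeR in heart, lung, kidney and liver (4.24%, 5.73%, 6.52% and 14.1% of all genes). The shares of genes called were 0.0128%, 0.0417%, 0.0192% and 1.03%. Zbtb16 in liver had a difference of 1.74 ± 0.60 (adjusted p = 0.187). Whether the Egf effect differed among organs was tested over all 68 libraries. For 2 h, 0 members passed by edgeR with 3 at an unadjusted p under 0.05 beside 12.4% of all genes, 2.19% of genes were called, and Sesn1 had adjusted p = 0.14. With the number that libraries of different organs share as a replicate block, Tsc22d3 passed (adjusted p = 0.0239) and 7 members had an unadjusted p under 0.05. For 6 h, 0 passed with 0 at an unadjusted p under 0.05 beside 6.0% of all genes, and 0.048% were called. Zbtb16 and Sesn1, the members that fell in liver, passed in neither fit for 2 h.

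**Figure D5:**
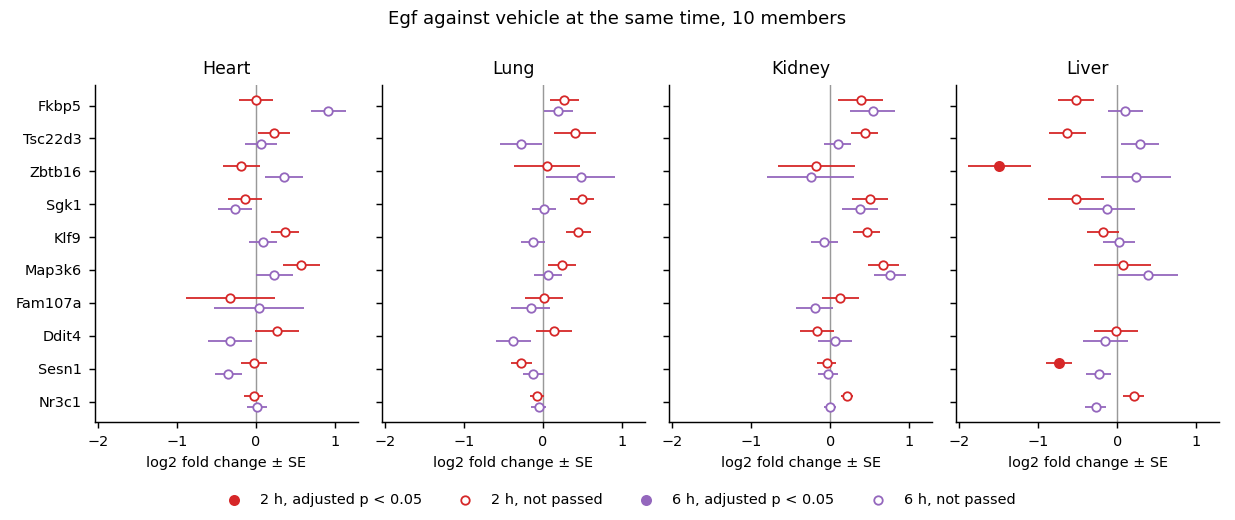
Log2 fold change of each member, Egf over vehicle at the same time, at 2 h (red) and 6 h (purple) in 4 organs; bars are the standard error and filled points have an adjusted p under 0.05. The filled points are Zbtb16 and Sesn1 in liver at 2 h; Fam107a was not tested in liver.

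Likeness to Fkbp5 was read as Pearson's r of log2 CPM over the 17 libraries of an organ, averaged over the 4 organs, for 12597 genes tested in all 4. The libraries share their groups, so this describes the pattern and carries no test. Outside the members the 8 most alike genes were Baiap2 (mean r 0.66), Lrrc59 (0.64), Utp18 (0.64), Picalm (0.63), Rsrp1 (0.63), Noct (0.62), Hnrnph1 (0.60) and Gspt1 (0.60). Map3k6 ranked 9 with a mean r of 0.60, made of 0.99 in lung, 0.80 in kidney, 0.78 in heart and -0.18 in liver. Tsc22d3 ranked 48, Zbtb16 227, Sgk1 629 and Klf9 1041. Sesn1 ranked 6813, Ddit4 7463 and Nr3c1 12109, with a mean r of -0.30. Fam107a, not tested in liver, was not ranked. Within groups, after the group means were removed, Map3k6 kept a mean r of 0.54 and ranked 38. The 8 genes outside the members all had lower values there, from 0.38 (Picalm, rank 1444) to -0.075 (Lrrc59, rank 7107). Lrrc59 was thus near 0 and opposite in sign to its likeness over all libraries.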

How the data were processed

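Polyadenylated RNA of 68 organ samples was sequenced from non-directional libraries. The authors deposited unnormalized counts for each gene. HISAT2 2.0.5, featureCounts 1.5.0-p3 and the build mm39 are named in the submitters' processing notes. Trimming, counting options and annotation release were not stated. Each organ's 17 libraries were fitted together with edgeR 4.0.16 in R 4.3.3 (filterByExpr, TMM, robust quasi-likelihood F tests, Benjamini-Hochberg adjustment over all genes tested). Standard errors are those implied by the F statistic. A fit of all 68 libraries compared organs. Totals of 13271813 to 24972005 reads set the counting precision, and the spread between libraries was the larger limit. edgeR's common coefficient of biological variation was 0.389 (heart), 0.283 (lung), 0.192 (kidney) and 0.224 (liver). The members were named in every comparison, lists by up to 3 called genes in each direction with the smallest p, and likeness by the 8 highest mean r with a prior count of 2. The members, lists and tests were chosen with earlier results of these data known. The procedure was tested on simulated counts. Alternatives were RLE size factors, no low count filter, DESeq2 1.42.0, limma 3.58.1 voom with quality weights, only the groups compared, a replicate block, each library left out in turn, and the libraries carrying RNA of another organ left out, meaning summed markers above 500 CPM and 10 times the organ's median. In the fit of all 68 libraries, leaving out meant 1 replicate of a group in every organ at once. Promoter windows come from RefSeq on GRCm38.p6, and gene coordinates from the deposited table.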

Additional observations from a re-analysis of the deposited data

Results flagged for a closer look

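Of 78 groups of 4 libraries of a member, 4 held a library far from the other 3, and chance gives about 1 in 20. Map3k6 had 13.0 CPM in heart replicate 1 at 6 h after Egf, the highest, against 6.64 to 7.07 in the others. Sesn1 had 152 CPM in heart replicate 3 of the same group, the highest, and 18.5 CPM in liver replicate 1 at 6 h after Egf. Nr3c1 had 108 CPM in kidney replicate 4 at 6 h after Egf, the lowest of its group. Heart replicates 1 and 3 of that group are among the libraries carrying RNA of another organ. The vehicle effect on Fkbp5 at 2 h differed among the 4 organs by the test of that difference (edgeR adjusted p = 0.0138).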

How the results depend on the processing

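Counts of members called moved as follows. In heart, vehicle at 2 h against untreated gave 1 member, and 0 with RLE size factors, limma voom, only the groups compared or a replicate block, 5 with DESeq2 and 0 to 3 with 1 library left out. With DESeq2 and limma voom in turn, counts went from 0 to 1 and 3 for heart vehicle at 6 h, 0 to 2 and 2 for heart vehicle 6 h against 2 h, 0 to 1 and 2 for heart Egf at 6 h, 2 to 4 and 5 for lung vehicle 6 h against 2 h, 0 to 3 and 4 for kidney vehicle at 2 h, 0 to 1 and 2 for kidney vehicle at 6 h, 0 to 2 and 3 for kidney vehicle 6 h against 2 h, 0 to 1 and 2 for liver vehicle at 2 h, and 1 to 2 and 3 for liver vehicle 6 h against 2 h. Lung vehicle at 2 h gave 3, with 4 by DESeq2 and 5 by limma voom. Limma voom, and not DESeq2, gave 2, 3 and 1 in place of 0 for Egf in lung at 2 h, kidney at 2 h and kidney at 6 h, and 1 in place of 0 for liver vehicle at 6 h. Liver vehicle 6 h against 2 h gave 2 with only the groups compared, and liver Egf at 2 h gave 1 in place of 2 without the low count filter. With 1 library left out, members called were 0 to 1 for liver vehicle at 2 h, 0 to 1 for liver vehicle 6 h against 2 h and 0 to 1 for liver Egf at 2 h. For the tests among organs, 1 replicate of a group was left out of every organ at once. Members called were then 0 to 2 for the vehicle effect at 2 h and 0 to 1 for the Egf effect at 2 h. Of 166 other settings 135 left the count of members within 1.5 times. Of 210 fits with 1 library, or 1 replicate in every organ, left out 189 did. The likeness of Lrrc59 changed sign to -0.075 on residuals from group means. The cause of these moves was not tested.

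Replicate numbers were not taken as pairing the libraries, since not every pair correlated above 0.1. Of 120 pairs of same-numbered libraries of 1 organ 44 did, and of 102 pairs of libraries with the same description number in 2 organs 41 did. A library correlated best with its own number in another organ in 82 of 204 cases, where the group sizes alone give 60, a hint of sharing across organs. Each description number also has the same group and replicate in all 4 organs, though the labels do not say that it marks a mouse. Pairs that did not correlate above 0.1 cannot exclude shared mice. The main fit over 68 libraries took the libraries as independent and did not account for such sharing. With that description number as replicate block, 1 member passed for the Egf effect among organs at 2 h in place of 0 (Tsc22d3, adjusted p = 0.0239), and Fkbp5 had adjusted p = 0.00815 for the vehicle effect at 2 h. Within organs the replicate block also lost Zbtb16 for liver Egf at 2 h. Counts over all genes varied widely over the alternative settings, tools among them, from 0 to 526 against 2 for heart vehicle at 2 h, 6 to 876 against 11 in lung, 0 to 2843 against 4 in kidney and 6 to 541 against 21 in liver. For Egf at 2 h they were 9 to 101 against 33, 64 to 822 against 141, 1 to 574 against 40 and 487 to 1038 against 533. Leaving out libraries that carry another organ could not be run for heart against untreated mice, where all 3 untreated libraries are of that kind, and no such library exists in kidney and liver. Members with few reads, such as liver Map3k6 near 1 CPM, are limited by depth.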
